A study of Mus musculus with 45 samples.

Results

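Pou5f1 encodes Oct4, the POU-domain transcription factor that is needed for pluripotency, and it is also one of the reprogramming factors that were introduced into these cells. The gene was 1 of 23574 gene names in the deposited gene table, and 52 of 276608 transcript models were assigned to it. The members were the gene row named Pou5f1 and every transcript row whose identifier begins with its name, followed across all 45 libraries. Oct4 usually acts together with Sox2 on composite DNA elements, in pluripotent cells in particular, and activates genes such as Nanog, Utf1 and Fgf4. The gene is silent in most somatic cells, neural progenitors included, so in cells that carry an introduced Oct4 cDNA the gene-level signal can come from the cDNA, from the resident locus or from both.

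The libraries were long-read cDNA libraries of mouse cells, sequenced on Oxford Nanopore flow cells by 2 chemistries. Unamplified cDNA of poly(A) RNA was read in the 22 R9 libraries, and PCR-amplified cDNA in the 23 R10 libraries. Neural progenitor cells (NPC), derived from Oct4-GFP embryonic stem cells, were wild type (WT) or stably transfected with a set of factors named OKMS or OKS. OKMS adds Myc to Oct4, Klf4 and Sox2, and both genotypes also bear a luciferase element named Luciferase-AS. Oct4-GFP cells (line O4G) hold a GFP reporter driven by the Oct4 promoter, so every NPC group carried that reporter. The NPC gave 4 libraries per chemistry, of which 2 were WT, 1 OKMS and 1 OKS. WT cells with no introduced factor were held for 2 days in serum with LIF and doxycycline (FBS-LIF with doxycycline), in 1 library of R9 and 2 of R10. OKMS and OKS cells in the same medium gave 12 R9 libraries, at days 2, 4, 6, 10, 14 and 20. They gave 8 R10 libraries, with OKMS at days 2, 4, 6, 10 and 18 and OKS at days 2, 6 and 18. Other factor cells were moved to 2i-LIF, which adds LIF, CHIR-99021 (a GSK3 inhibitor) and PD0325901 (a MEK inhibitor) to N2B27, with no doxycycline listed. They gave 3 R9 libraries (OKMS at days 14 and 20, OKS at day 20) and 2 R10 libraries (OKMS and OKS at day 18). The move was at day 6 in R9 and its day is not given for R10. Embryonic stem cells (ESC) in 2i-LIF, of lines O4G, R1 and R1-Clone3, gave 2 R9 and 7 R10 libraries. Each system was a stably transfected line, and nothing in the labels says that libraries of a group came from separate cultures, so the spread between libraries may be partly technical. The cultures were sequenced in bulk, so fewer cells with the transcript and less transcript per cell cannot be told apart.

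The R9 libraries held 447990 to 1390424 reads each, and the R10 libraries 566599 to 4236442. The summed level of 5 neural progenitor markers (Nes, Sox1, Pax6, Fabp7, Olig2) was 3911 to 5093 CPM (reads scaled to library depth) in R10 NPC and 4.93 to 37.3 CPM in R10 ESC. The summed level of 6 pluripotency markers (Nanog, Zfp42, Esrrb, Dppa5a, Tdgf1, Dppa4) was 12.3 to 23.4 CPM in R10 NPC and 9558 to 12138 CPM in R10 ESC. In R10 factor cells at days 2 to 6 in FBS-LIF with doxycycline, the pluripotency sum was 14.2 to 236 CPM and the progenitor sum 78.6 to 3230 CPM. Markers of primitive endoderm, mesoderm and trophoblast stayed at or under 17.4 CPM in sum in NPC and ESC. In the factor libraries they reached up to 16.3 CPM for primitive endoderm (3 of 4 markers in the table), 69.1 CPM for mesoderm (3 markers) and 45.8 CPM for trophoblast (1 of 4 markers).

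The mouse gene lies on the plus strand of chromosome 17 at 35506018 to 35510772 (GRCm38) and has 5 exons in its annotated coding transcript. To follow what the 52 models keep of this structure, the region before the annotated start and the last coding stretch are shown. The first is 236 bases of the promoter (RefSeq window, GRCm38.p6, chr17:35505782-35506017, plus strand) with a GC box (GGGCGG) and a nuclear receptor half-site (AGGTCA) in capitals, which lie 31 and 19 bases before the annotated start.

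Pou5f1 promoter: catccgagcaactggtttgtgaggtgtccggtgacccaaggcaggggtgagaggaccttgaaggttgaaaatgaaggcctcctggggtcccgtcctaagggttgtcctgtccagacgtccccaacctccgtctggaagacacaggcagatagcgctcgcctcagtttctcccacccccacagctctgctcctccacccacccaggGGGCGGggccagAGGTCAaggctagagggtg

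Searched on both strands, GGGCGG is present in 35.7% and AGGTCA in 16.3% of 32851 mouse promoter windows of the same length, so neither match is particular to this gene. The octamer ATTTGCAT, the sequence that POU proteins bind, is in 1.74% of the windows and not in this one. The next sequence is the coding part of the last exon (chr17:35510288-35510551, plus strand, from GENCODE M21), which ends with the stop codon. The capitals mark a stretch of 59 bases that 1 model, named 141 here, lacks.

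Pou5f1 last coding segment: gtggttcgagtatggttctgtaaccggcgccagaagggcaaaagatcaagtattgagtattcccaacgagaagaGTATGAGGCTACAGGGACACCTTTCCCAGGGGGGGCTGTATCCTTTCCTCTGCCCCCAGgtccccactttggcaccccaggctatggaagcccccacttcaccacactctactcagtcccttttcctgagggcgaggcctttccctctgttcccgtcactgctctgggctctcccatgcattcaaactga

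The missing stretch starts with GT and ends with AG, like an intron, and its length leaves a remainder of 2 on division by 3. The 4 exon junctions that the full-length models keep are shown with the downstream exon in capitals, because a spliced cDNA of the coding sequence holds the same junctions. Reads across them therefore do not separate the resident transcript from a spliced cDNA.

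Exons 1 and 2: ccaactcccgaggagTCCCAGGACATGAAA
Exons 2 and 3: tgggcgttctctttgGAAAGGTGTTCAGCC
Exons 3 and 4: gagaaccttcaggagATATGCAAATCGGAG
Exons 4 and 5: gggctagagaaggatGTGGTTCGAGTATGG

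The models were sorted by structure alone. A model was called full-length and endogenous-like when it held all annotated introns and no other, started before the start codon and ended at least 50 bases past the stop codon. It was called exon-contained when it lay inside annotated exons and reached neither upstream of the annotated start nor more than 50 bases past the stop codon. Only 1 model met the first rule, model 5 (1498 bases, 5 exons), which starts 138 bases upstream of the annotated start, inside the printed promoter, and ends 219 bases past the stop codon. Model 5 carried 88.1% of all Pou5f1 transcript TPM (transcript level scaled for length and depth) and was above 0 in 38 libraries. Only 1 model met the second rule, model 141 (923 bases, 6 exons), with 2.03% of the TPM and values in 30 libraries. It starts 46 bases after the annotated start and 36 bases before the start codon, lacks the 59 bases in capitals (chr17:35510362-35510420) and ends 113 bases before the end of the stop codon, and no other model has that gap. It therefore holds a piece of the 5' UTR and not the whole coding sequence, and the UTRs of the introduced cassette are not given in the sources used here. Its predicted reading frame has 295 residues, against 352 for the annotated protein. The other 50 models shared 9.90% of the TPM. The split is one of models, and a read of the introduced cDNA could still have been given to model 5 by the authors' program.

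**Figure D1:**
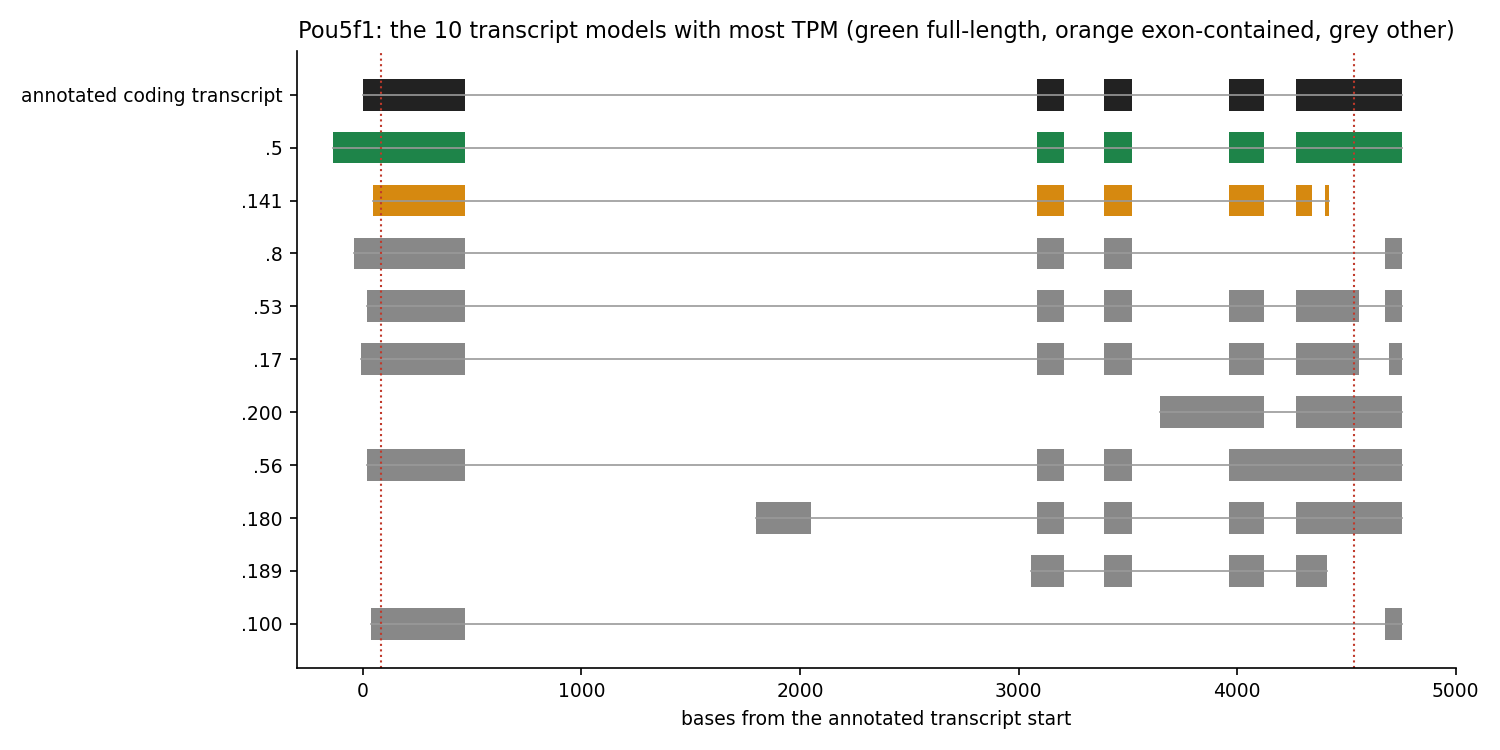
Exon maps of the annotated coding transcript and of the 10 Pou5f1 models with most TPM, against distance in bases from the annotated transcript start (dotted lines: start and stop codon). Model 5 (green) covers all 5 annotated exons, while model 141 (orange) stops 113 bases short of the stop codon's end.

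Most of the remaining models kept the annotated beginning. The canonical first exon opened 44 of the 52 models, which held 98.3% of the TPM, 5 models (1.04%) began in intron 1 and 3 (0.622%) in exon 2 or later. The authors' classification gave 40 models at least 1 unannotated splice site, and these held 9.17% of the TPM. A new intron inside the last exon was present in 12 models with 4.50% of the TPM, model 141 among them. Model 8 (836 bases, 4 exons) joins exon 3 directly to a late part of the last exon, and held 1.77% of the TPM. Only 3 models kept a predicted reading frame of 352 residues. Before the authors' filter the locus had 314 models, of which 212 had unannotated splice sites.

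Pou5f1 was near 0 in progenitors and among the most strongly raised genes in ESC. In R10 the WT NPC had 0.953 CPM (3 reads) and 0 reads, the OKMS NPC 3.52 CPM (8 reads) and the OKS NPC 2.92 CPM (5 reads), against 856, 885, 954, 955, 1060, 1106 and 1109 CPM in the 7 ESC libraries. A count of 0 in the deep WT library allows up to 0.861 CPM (3 reads), and the arms do not overlap. The test needed 1 CPM in 4 libraries, and among NPC only the OKMS and OKS libraries reached that level. Pou5f1 thus entered the test only with the help of ESC libraries, so the p and rank that follow support nothing by themselves. Pou5f1 rose by 8.67 ± 0.30 on the log2(CPM + 1) scale (SE, limma adjusted p = 1.87e-12, n = 7 and 4), with means of 989 and 1.85 CPM. That was the 14th largest absolute difference among 15415 genes tested, of which 45.8% were called in either direction (22.4% higher and 23.5% lower in ESC), where a call needs an adjusted p under 0.05 and a log2 difference of at least 1 in size. In R9 the WT NPC had 1.34 and 3.87 CPM, the OKMS NPC 0 (limit 4.04 CPM) and the OKS NPC 1.69 CPM, against 1309 and 1402 CPM in ESC. The R9 difference was 9.17 ± 0.59 (limma adjusted p = 9.38e-05, n = 2 and 4), in a comparison where 36.0% of genes were called and 17.6% were higher.

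**Figure D2:**
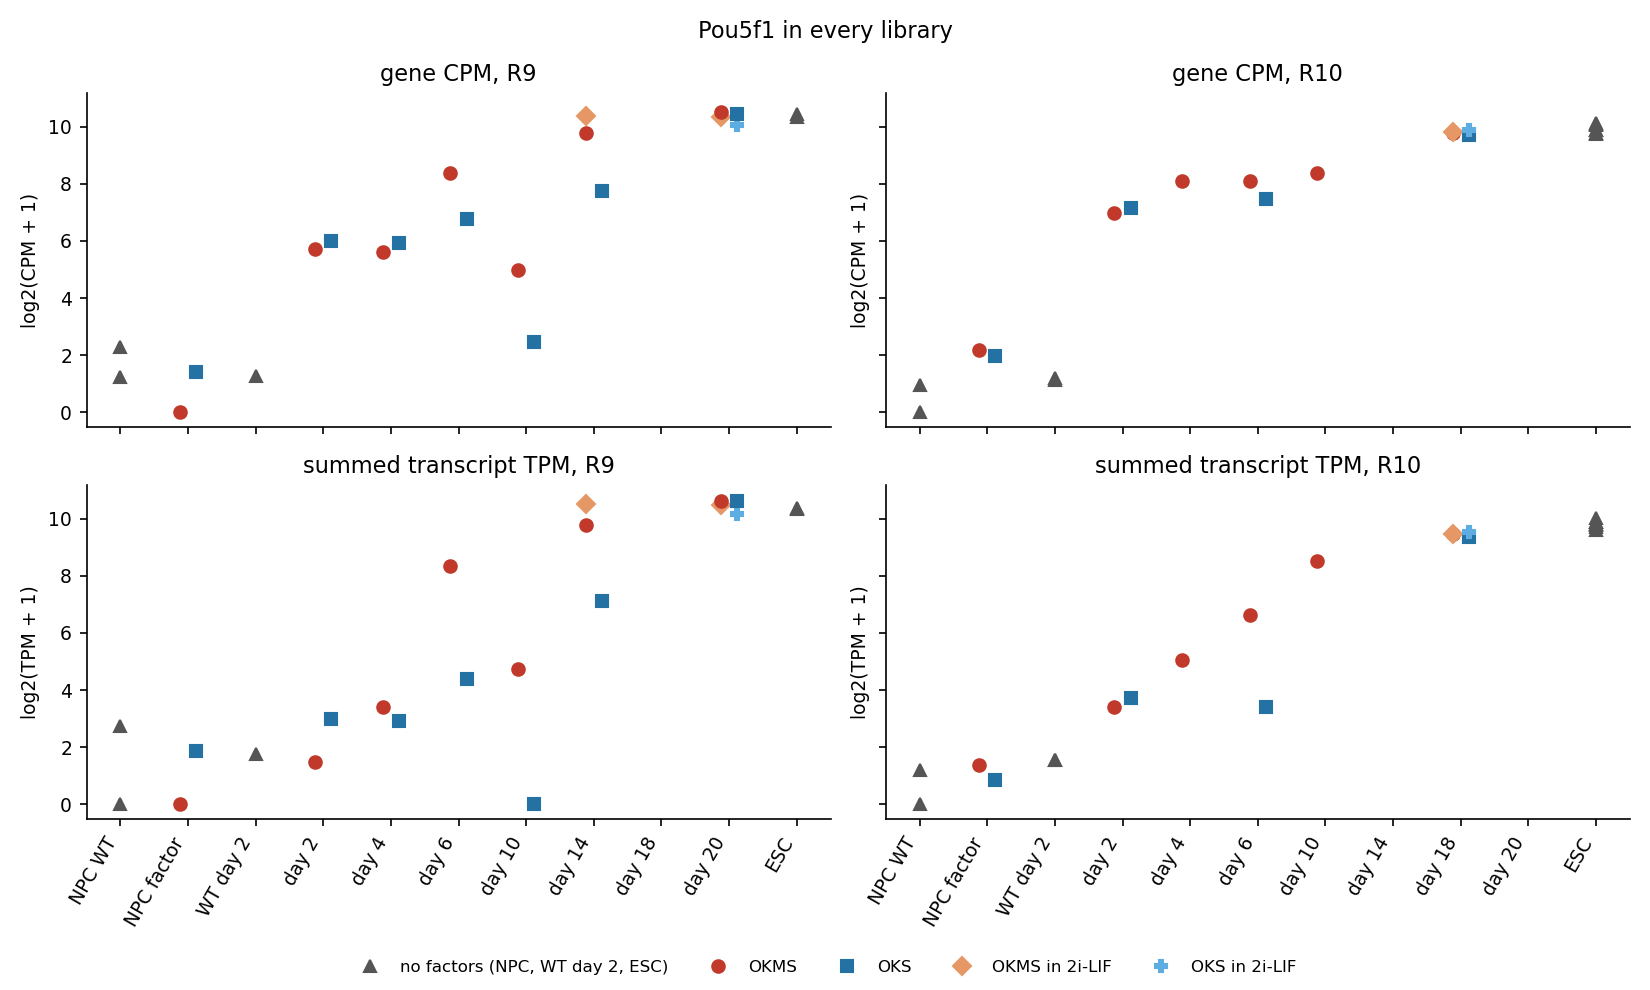
Pou5f1 in each of the 45 libraries as log2(CPM + 1) of the gene (upper row) and log2(TPM + 1) of its summed transcript models (lower row), for R9 and R10, by group and day. In R10 factor cells at days 2 to 6 the gene is at 126 to 272 CPM, while the summed models reach 9.57 to 97.2 TPM.

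Before doxycycline the factor lines carried few Pou5f1 reads. Uninduced OKMS and OKS NPC exceeded WT NPC in R10, with means of 3.22 and 0.476 CPM. The difference of 1.59 ± 0.48 missed the threshold (limma adjusted p = 0.135, n = 2 and 2) in a comparison that called 1.51% of genes. Both R10 WT NPC libraries lay under the minimum of 1 CPM, so Pou5f1 entered this test through the factor libraries alone. The R9 values ran the other way, with means of 0.843 and 2.60 CPM and a difference of -1.04 ± 0.86 (limma adjusted p = 1.00), which was -0.33 without the OKMS library, -0.51 without WT replicate 2, -1.57 without WT replicate 1 and -1.75 without the OKS library. No gene was called there by limma (0%), with 396 of 14014 genes at an unadjusted p under 0.05, and edgeR called 3 genes and DESeq2 0. The R9 OKMS NPC library was at 0, so Pou5f1 entered the R9 test only with the help of WT libraries. The induction medium alone also left Pou5f1 low. WT cells after 2 days in FBS-LIF with doxycycline had 1.17 and 1.32 CPM (3 and 4 reads) in R10 and 1.41 CPM (1 read) in R9. Against WT NPC the R10 difference was 0.68 ± 0.44 (limma adjusted p = 0.294, 95% interval -0.42 to 1.79, n = 2 and 2), in a comparison that called 26.8% of genes. It was 1.17 without WT NPC replicate 2 and 0.20 without WT NPC replicate 3. Here too both WT NPC libraries lay under the minimum, so Pou5f1 entered the test through the libraries in FBS-LIF with doxycycline alone.

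With the factors, Pou5f1 reads were abundant by day 2. The gene had 126 CPM (160 reads) in OKMS and 141 CPM (379 reads) in OKS at R10 day 2, against the 3 and 4 reads of the WT libraries in the same medium. Pou5f1 rose by 5.91 ± 0.49 (limma adjusted p = 0.00185, n = 2 and 2, means 134 and 1.25 CPM), the 4th largest absolute difference in a comparison that called 0.740% of 15402 genes. Each arm held 2 libraries, and the adjusted p was 0.504 without OKMS, 0.237 without OKS and 0.547 without WT replicate 3, with differences of 5.99, 5.83 and 5.95. On summed transcript TPM, an alternative added after seeing the data, the difference was 2.01 (limma adjusted p = 0.277). In R9 the day 2 values were 52.0 CPM in OKMS and 62.8 CPM in OKS, against 1.41 CPM in WT. Klf4, introduced with Oct4, also rose at R10 day 2, to a mean of 129 CPM from 0.494 CPM (6.52 ± 0.57, limma adjusted p = 0.00191), but it entered the test through the factor libraries alone, since both WT libraries lay under the minimum of 1 CPM. None of the 6 tested Oct4-Sox2 target genes was called at that time, and the largest difference was that of Fbxo15 (10.6 against 0.392 CPM, adjusted p = 0.127).

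The R10 time course came near the ESC range by day 18. OKMS had 126, 272, 270, 331 and 889 CPM at days 2, 4, 6, 10 and 18, and OKS had 141, 176 and 828 CPM at days 2, 6 and 18. Both day 18 values lay below or within the lower part of the ESC range of 856 to 1109 CPM. Over all days the 8 libraries had a mean of 379 ± 304 CPM (SD) and lay 1.74 ± 0.37 below ESC on the log2 scale (limma adjusted p = 0.00106, n = 8 and 7), where 32.0% of genes were called. These days are not replicates of 1 condition. With day 18 alone the difference was -0.20 (limma adjusted p = 0.401), and with days 2 to 10, an alternative added after seeing the data, it was -2.25.

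The R9 course was less even. OKMS had 52.0, 48.0, 330, 30.9, 873 and 1457 CPM at days 2, 4, 6, 10, 14 and 20. OKS had 62.8, 60.1, 107, 4.46, 213 and 1393 CPM at the same days. In both systems the day 10 library lay below the day 6 library, with 22 reads for OKMS (95% exact Poisson interval 19.4 to 46.9 CPM) and 2 reads for OKS (0.541 to 16.1 CPM). Intervals of this kind cover counting error only. Klf4 was low in the same day 10 libraries (30.9 and 22.3 CPM, against 91.4 and 83.0 CPM at day 6). Sox2 and Myc were also lower at day 10 in OKMS (101 against 145 CPM, and 15.5 against 66.9 CPM), but in OKS Sox2 was higher (216 against 100.4 CPM) and Myc was at 58.0 against 54.9 CPM. Nanog in OKMS was not, at 131 CPM on day 10 and 90.1 CPM on day 6. Over 14417 genes the R9 OKMS day 10 library correlated best with the R10 OKMS library of day 10 (r = 0.903) and the R9 OKMS day 6 library with that of day 6 (r = 0.903), as a description across genes, which are not independent. Later days (10, 14 and 20) minus earlier days (2, 4 and 6) gave 1.25 ± 1.16 (limma adjusted p = 0.523, n = 6 and 6), in a comparison that called 1.63% of genes. It was 2.30 without OKS day 10 and 1.95 without OKMS day 10, and 0.53 without OKS day 20 and 0.72 without OKMS day 20.

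OKMS and OKS were compared day by day in R9. The OKMS library was higher on days 6, 10, 14 and 20 and lower on days 2 and 4, with means of 465 and 307 CPM. The difference of 0.94 ± 0.35 (limma with day as a block, 95% interval 0.19 to 1.70, adjusted p = 0.0586, n = 6 pairs) just missed the threshold, in a comparison that called 18% of 14277 genes. It passed with median centring (1.10, adjusted p = 0.0258) and without day 2 (1.19), day 4 (1.20) or day 20 (1.12), and did not pass without a day block (adjusted p = 0.606). It did not pass without day 6, 10 or 14 either. The lowest value was 0.62, without day 10, where OKMS had 22 reads and OKS 2. In R10 at days 2, 6 and 18, OKMS had 126, 270 and 889 CPM and OKS 141, 176 and 828 CPM, so OKMS was lower at day 2 and higher at days 6 and 18.

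Cells in 2i-LIF were close to ESC in Pou5f1. The 2i-LIF libraries had 1344 and 1302 CPM (OKMS days 14 and 20) and 1077 CPM (OKS day 20) in R9, and 896 and 953 CPM (OKMS and OKS day 18) in R10. The ESC ranges were 1309 to 1402 CPM in R9 and 856 to 1109 CPM in R10. The difference from ESC was -0.09 ± 0.14 in R10 (limma adjusted p = 0.716, 95% interval -0.40 to 0.21, 9.06% of genes called) and -0.13 ± 0.14 in R9 (adjusted p = 0.751, interval -0.44 to 0.18, 0.711% called). Against cells of the same system, day and chemistry left in FBS-LIF with doxycycline, the 5 pairs gave 0.06 ± 0.16 (limma with pair as a block, adjusted p = 0.857, interval -0.28 to 0.40), where 12.3% of genes were called. The R9 OKMS day 14 pair differed most, by 0.62 (1344 against 873 CPM). Doxycycline and medium changed together in these pairs, so their parts cannot be told apart.

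The share of Pou5f1 gene reads that a transcript model carried was far lower in early factor cells than in ESC, with no overlap between the R10 arms. Multiplying each TPM by the length of its model gave whole multiples of 1 value per library, which returned the reads behind every model, and in 710786 gene and library pairs the transcript reads never exceeded the gene reads. In the 7 R10 ESC libraries between 75.4% and 81.5% of Pou5f1 reads were carried by 1 of the 52 models, with a mean of 79.1% ± 2.05 (SD). At R10 day 2 the models carried 6 of 160 reads in OKMS (3.75%, 95% Clopper-Pearson interval 1.39 to 7.98) and 12 of 379 reads in OKS (3.17%, 1.65 to 5.47). At later days they carried 14 of 256 reads in OKMS day 4 (5.47%), 70 of 306 in OKMS day 6 (22.9%, 18.3 to 28.0) and 10 of 412 in OKS day 6 (2.43%, 1.17 to 4.42). Every ESC library thus lay above every library of days 2 to 6, and the OKMS day 6 library was the highest of the latter.

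The mean of those 5 libraries was 7.54% ± 8.65, and the difference of 71.6 percentage points had p = 0.00126 in a two-sided exact permutation test over libraries (n = 7 and 5), the smallest p these arms allow. The test was chosen after seeing the data. The arms do not overlap, which fixes the p, so it adds no support. The early libraries of both chemistries differ in system and day and are not replicates of a single condition. In OKMS at day 10 the models carried 283 of 390 reads (72.6%), and the day 18 libraries had 62.4% (OKMS) and 60.4% (OKS) in FBS-LIF with doxycycline and 62.0% and 60.8% in 2i-LIF. These day 18 values lay below ESC, as did the median share over all genes with at least 20 reads, which was 41.7 to 45.5% at day 18 and 48.8 to 57.5% in ESC.

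**Figure D3:**
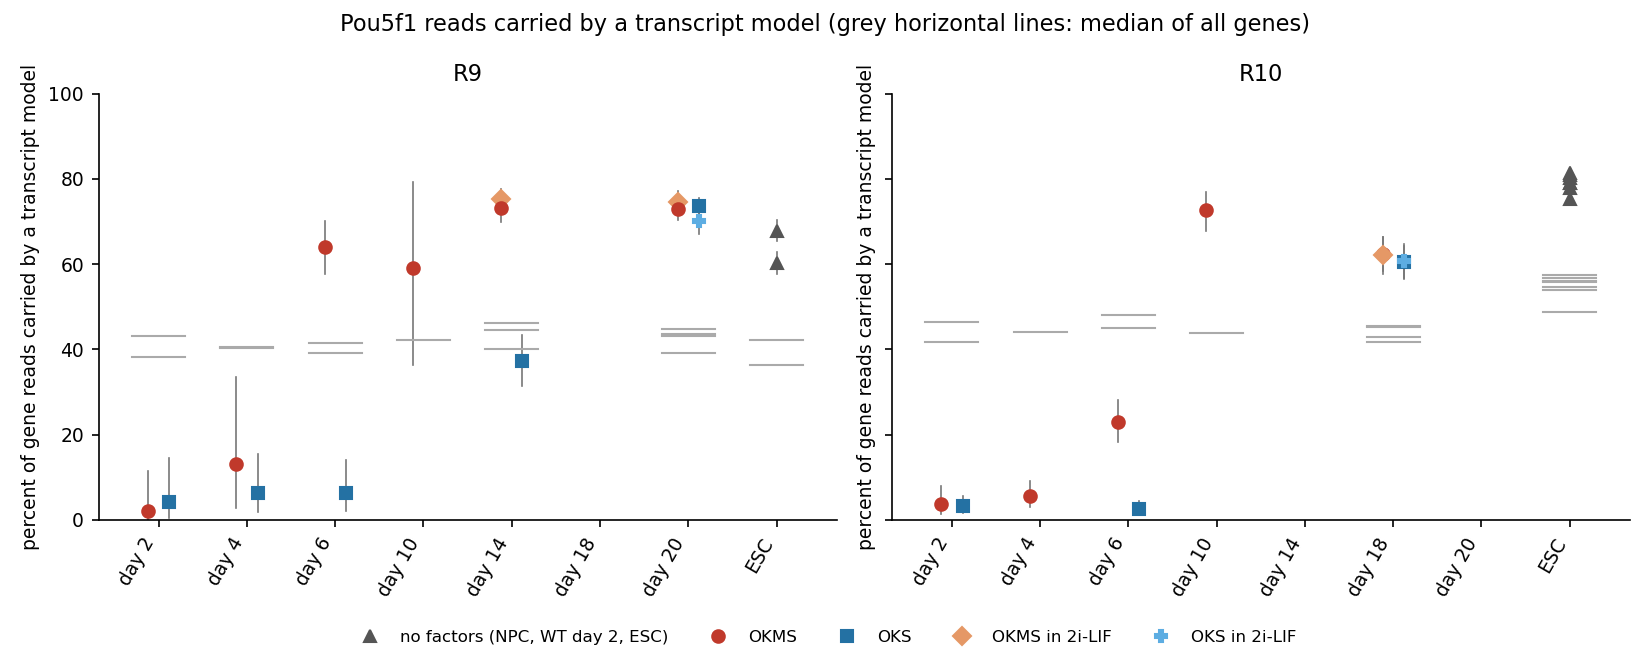
Percent of Pou5f1 gene reads carried by a transcript model, by day, for libraries with at least 20 Pou5f1 reads (vertical lines: 95% Clopper-Pearson intervals, grey horizontal lines: the median over genes in the same libraries). In R10, OKMS and OKS start under 6% and ESC lie at 75.4 to 81.5%, while the median over genes stays between 41.7 and 57.5%. In R9, ESC lie at 60.3 and 67.8%, and the median over genes goes down to 36.4%.

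In R9 the course differed between the systems. The models carried 1 of 46 and 3 of 23 reads in OKMS at days 2 and 4, then 155 of 242 at day 6 (64.1%, 57.7 to 70.1). In OKS they carried 2 of 47, 4 of 63 and 5 of 80 reads at days 2, 4 and 6 (4.26, 6.35 and 6.25%), and 96 of 258 at day 14 (37.2%). Both systems ended at 73.0% (OKMS) and 73.5% (OKS) at day 20, above the 2 ESC libraries at 67.8% and 60.3%. Days 2 to 6 had a mean of 16.0% ± 23.8 against 64.1% in ESC (two-sided exact permutation p = 0.0714, n = 6 and 2, smallest possible 0.0357). The OKMS day 6 library, at 64.1%, was the one that overlapped ESC.

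The level of carried reads followed a different course from the gene level. The Pou5f1 reads carried by a model came to 4.75, 14.9, 61.9, 240 and 556 CPM in R10 OKMS at days 2, 4, 6, 10 and 18. Those not carried by any model were 122, 258, 209, 90.9 and 334 CPM in the same libraries. In that series the carried reads were higher at each later day sampled, while the others had no single direction. In R10 OKS the carried reads were 4.48, 4.27 and 501 CPM at days 2, 6 and 18. ESC had 677 to 899 CPM carried and 177 to 273 CPM uncarried, so the uncarried reads of days 2 to 6 (122 to 258 CPM) fell in or below the ESC range. In R9 the carried reads did not rise at every step, since they went from 212 CPM at day 6 to 18.3 CPM at day 10 in OKMS and from 6.70 CPM to 0 in OKS, the day 10 libraries with few Pou5f1 reads. By day 20 they were at 1064 CPM in OKMS and 1026 CPM in OKS. The sequence of the uncarried reads was not analysed here, and whether they came from the introduced cDNA was not tested.

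Cells without factors gave a contrast on very few reads. All 3 and 4 Pou5f1 reads of the R10 WT libraries in FBS-LIF with doxycycline, and all 3 of the R10 WT NPC library with any, were carried by model 5. The factor NPC libraries of R10 had 2 of 8 (OKMS) and 1 of 5 (OKS) reads carried. In R9 the WT libraries had 4 of 4, 1 of 1 and 0 of 1 reads carried and the OKS NPC 1 of 1. The 95% Clopper-Pearson intervals are wide, 3.19 to 65.1% for 2 of 8 reads and 39.8 to 100% for 4 of 4.

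The fall of the Pou5f1 share between ESC and early libraries was large beside that of other genes, while its low early share was less rare. Among 5472 genes with at least 20 reads in each of the 12 R10 libraries concerned, 10 (0.183%), Pou5f1 among them, were lower at days 2 to 6 than in ESC by at least its 71.6 points. Only 1108 of them had an ESC share high enough for such a fall, of which the 10 are 0.903%. An early share as low as that of Pou5f1 was present in 155 of the 5472 genes (2.83%). The median difference over those genes was -6.31 points, and the median shares were 44.8% and 53.5%. In R9, where Pou5f1 was lower by 48.0 points and the median gene was higher by 2.88 points, 10 of 3465 genes (0.289%) fell as far, or 0.874% of the 1144 that could, and 340 (9.81%) had as low an early share. The other introduced factors had lower shares in ESC to begin with. Klf4, a zinc finger factor, was at 5.17% at R10 days 2 to 6 and 21.4% in ESC, and 14.0% of genes fell at least as far. Sox2 was at 11.9% and 21.4%, a difference that 35.7% of genes matched or exceeded. In R9 falls of their size were rarer: Klf4 was lower by 15.7 points, with 3.17% of genes falling as far, and Sox2 by 15.3 points, with 3.35%. The early share of Klf4 was as low or lower in 1.70% of genes in R10 and 2.37% in R9.

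The remaining factors split by system. Myc, which only the OKMS set adds, had 15 of 130, 9 of 156 and 12 of 154 reads carried in R10 OKMS at days 2, 4 and 6 (5.77 to 11.5%). In OKS it had 35 of 67 and 49 of 97 at days 2 and 6 (52.2 and 50.5%), near the 45.5 to 51.7% of the R10 NPC. For Sox2 the shares were 2.52 to 8.59% in OKMS and 20.6 to 23.3% in OKS at these days, and 25.9 to 41.9% in NPC. Klf4 was at 3.79 to 6.74% in both systems. These splits were seen in the values and were not tested.

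**Figure D4:**
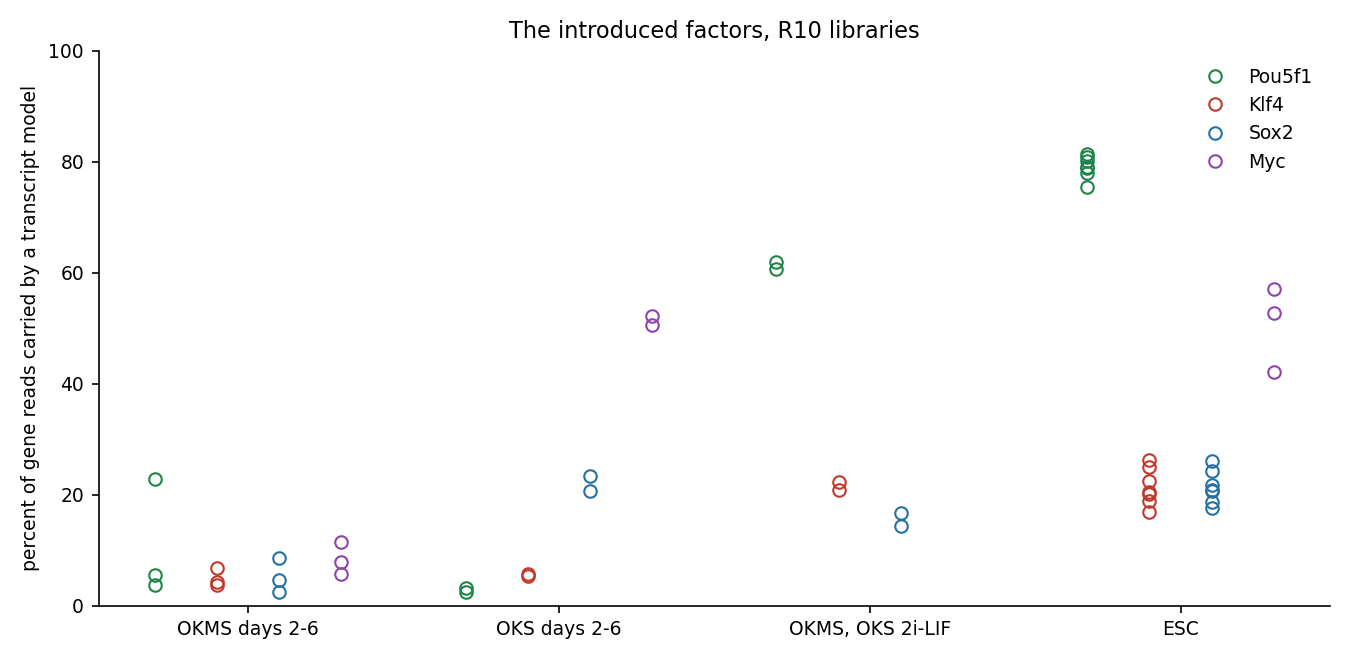
Percent of gene reads carried by a transcript model for Pou5f1, Klf4, Sox2 and Myc in R10 libraries (1 circle per library, Myc where it had at least 20 reads), for OKMS and OKS at days 2 to 6, 2i-LIF and ESC. Pou5f1 lies at 2.43 to 22.9% at days 2 to 6 and at 75.4 to 81.5% in ESC, and Myc at 5.77 to 11.5% in OKMS and 42.1 to 57.1% in OKS and ESC.

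Model 5 dominated what was carried in ESC, and less so in early factor cells. Its share of Pou5f1 TPM was 87.7% ± 1.18 (SD, n = 7) in R10 ESC and 48.7% ± 36.5 (n = 8) in FBS-LIF with doxycycline (two-sided exact permutation p = 0.0176, smallest possible 0.000155). The factor arms of these share tests mix systems and days and are not replicates of 1 condition, so their SD and p depend on the days sampled. By reads, model 5 took 2 of 6 (OKMS day 2), 0 of 12 (OKS day 2), 4 of 14 (OKMS day 4), 57 of 70 (OKMS day 6) and 2 of 10 (OKS day 6). At day 10 in OKMS it took 252 of 283, and at day 18 it took 323 of 374 in OKMS and 347 of 391 in OKS. The low shares are thus those of libraries with at most 14 carried reads. Limited to days 2 to 6 the mean share of TPM was 27.5% ± 28.8 (exact permutation p = 0.00126, the smallest these arms of 7 and 5 allow). The arms do not overlap, which fixes this p, so it adds no support.

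Model 141 made up a larger share of the carried reads in these libraries than in ESC, with means of 40.2% and 1.48% in R10. It had 2, 9, 7, 2 and 4 reads in OKMS day 2, OKS day 2, OKMS day 4, OKMS day 6 and OKS day 6, and 1 of 283 in OKMS day 10. Its share of TPM was 46.8% ± 27.7 at days 2 to 6 (n = 5) and 2.31% ± 1.01 in ESC (n = 7), with a two-sided exact permutation p = 0.00126, again the smallest possible, in a test chosen after seeing the data. These arms do not overlap either, which fixes the p, so it adds no support. R10 ESC libraries, which carry no introduced factor per the labels, held 5 to 63 reads of model 141, so its reads also arise without introduced factors. In R9 the share of model 5 was 91.3% in ESC (n = 2) and 74.0% ± 37.5 in factor libraries (n = 11, OKS day 10 had no carried read), with exact permutation p = 0.641. Model 141 had 0 to 3 reads in each R9 library of days 2 to 6, and its share did not pass (18.7% against 0.937%, exact permutation p = 0.643).

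**Figure D5:**
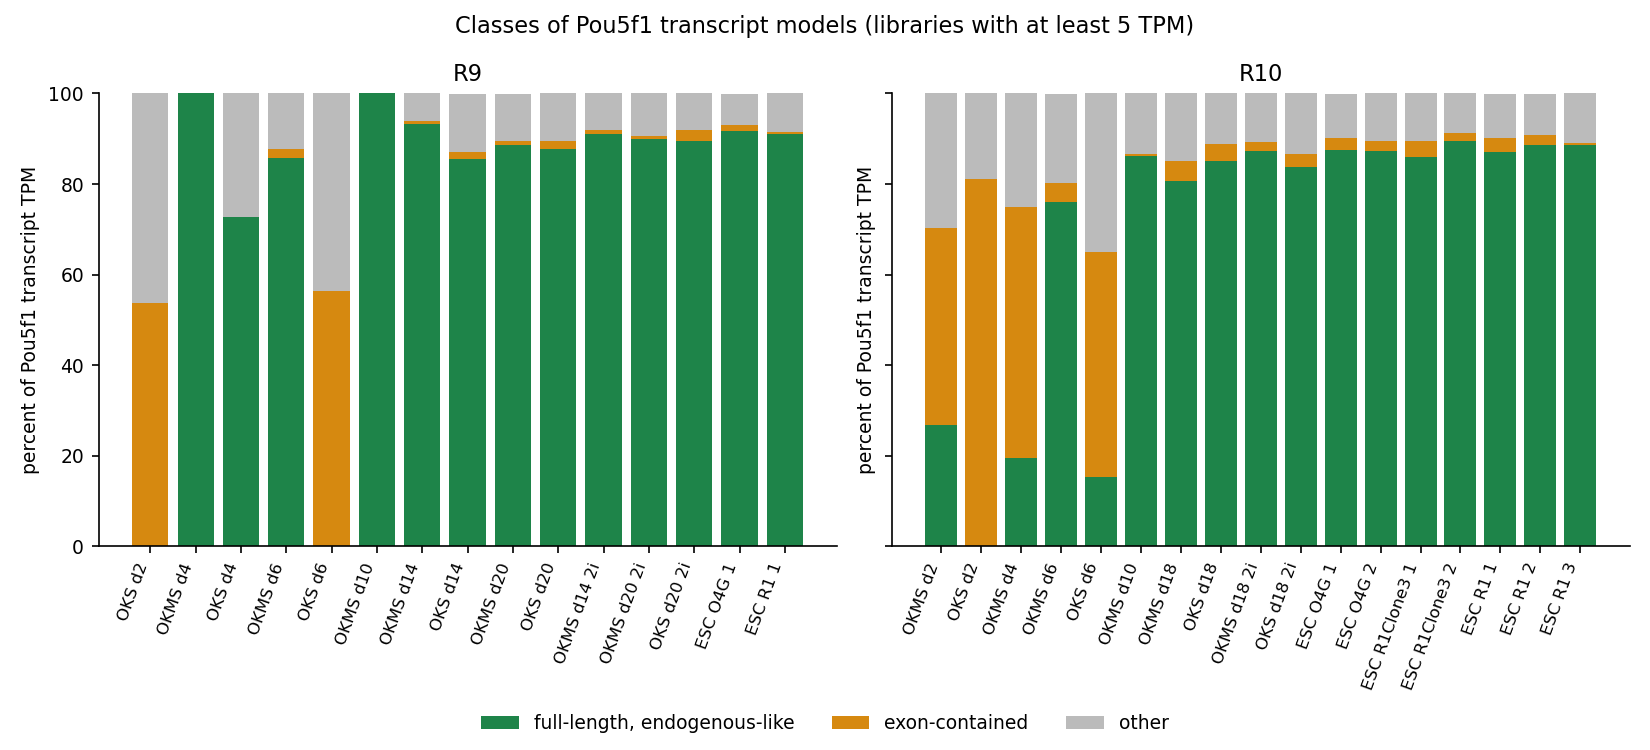
Percent of Pou5f1 transcript TPM in the full-length endogenous-like model 5 (green), the exon-contained model 141 (orange) and the other 50 models (grey), for each library with at least 5 TPM outside NPC. In R10, ESC bars are 86.0 to 89.4% green, and OKS day 2, with 12 carried reads, has no green.

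Individual models were then compared between ESC and factor cells in FBS-LIF with doxycycline on log2(TPM + 1). The factor arms again mix systems and days, which are not replicates of 1 condition. In R10, 12 Pou5f1 models were tested and 7 were higher in ESC, where 24.1% of 43215 transcripts were called and 17.3% called higher. Of the 12, 10 reached the minimum of 1 TPM in 7 libraries only with the help of ESC libraries, so the count supports nothing by itself, and only models 5 and 141 reached it in factor cells alone. Model 5 rose by 4.78 ± 1.21 (limma adjusted p = 0.00760, means 794 and 191 TPM, n = 7 and 8), and model 8 by 3.02 ± 0.76 (adjusted p = 0.00700, 29.6 and 8.80 TPM). Models 53 (2.45) and 17 (1.99) were also called, as were models 133, 180 and 3, at 1.20 for the last. Model 180 starts in intron 1. Model 141 was not called (0.99 ± 0.53, limma adjusted p = 0.182, 20.9 and 12.2 TPM). Its share was tested for days 2 to 6 only. At those days its mean level was 8.16 TPM in R10 and 3.57 TPM in R9. ESC had 20.9 and 12.5 TPM, so the larger early share of model 141 went with a lower level. That difference in level at days 2 to 6 was not tested. In R9, 4 models of low TPM (13, 144, 76 and 83, each at 2.11 to 3.88 TPM in ESC and 0.133 to 0.196 TPM in factor cells) were called higher, where 2.57% of 141433 transcripts were called and 2.34% called higher. Each of the 4 entered the test through the 2 ESC libraries, where it is high, and none was called with a minimum of 5 TPM. Model 5 was not called in R9 (5.43 ± 2.71, adjusted p = 0.630, means 1211 and 337 TPM, n = 2 and 12). It was called by edgeR on transcript reads, an alternative added after seeing the data, with a smaller log2 difference (1.87, adjusted p = 0.00680).

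The genes that Oct4 works with showed where the Pou5f1 level had counterparts. All 9 Oct4-Sox2 target genes were higher in R10 ESC than in NPC, with a median difference of 6.00 (0.01 over all genes, of which 22.4% were called higher). Of the 9, 7 reached the minimum of 1 CPM in 4 libraries only with the help of ESC libraries. The differences were largest for Nanog (9.12), the pluripotency factor, Zfp42 (8.87), Dppa4 (6.89) and Fbxo15 (6.73). In the R9 late against early comparison, where Pou5f1 itself was not called, 5 of the 9 targets rose (0.967% of all genes were higher and 0.665% lower). Utf1 rose by 5.11, Dppa4 by 4.97, Zfp42 by 4.95 and Lefty1 by 4.86. All 5 that rose, Fgf4 being the other, reached the minimum of 1 CPM in 6 libraries only with the help of late libraries. In the same comparison 5 of 6 pluripotency markers were higher and 1 of 4 tested progenitor markers (Fabp7) lower. Zfp42 and Dppa4 are on both the marker and the target list and needed late libraries to be tested. The marker count is thus not separate from the target count and supports nothing by itself. OKMS exceeded OKS in R9 for 5 of the 9 targets (6.93% of all genes), with Zfp42 at 3.27 and Nanog at 3.15. Of those 5, only Fbxo15 reached 1 CPM in all 6 OKS libraries, and the others, Zfp42 and Nanog included, needed OKMS libraries to be tested. Cell type markers moved with them: 5 of 6 pluripotency markers, 3 of which are also on the target list, were higher, and 2 of 4 tested progenitor markers (Fabp7 and Olig2) and 1 of 3 fibroblast-like markers (Twist1) were lower, where 11% of all genes were lower. In 2i-LIF against FBS-LIF with doxycycline, where the Pou5f1 difference was 0.06, 5 targets rose (5.95% of all genes), with Fbxo15 at 2.34 and Nanog at 2.20. At the same time 2 targets fell (6.32%), namely Utf1 (-2.63) and Lefty1 (-2.16). All 9 targets reached the minimum in either medium alone. Here 3 of 6 pluripotency markers were higher. Of the tested markers, 1 of 4 for progenitors (Pax6) and 1 of 3 fibroblast-like ones (Twist1) were lower. So were 1 of 2 for primitive endoderm (Gata6), 1 of 2 for mesoderm (Hand1) and the only 1 for trophoblast (Krt7). The other tested markers of these 5 lists were not called. The part of these markers in the target differences of the 3 comparisons was not tested.

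Regulators of the Pou5f1 locus mostly rose in R10 ESC. Of 11 tested, 5 of them passing the minimum only with ESC libraries, 8 were higher (22.4% of all genes), with Sall4 (7.0), Esrrb (6.18) and Klf5 (5.81) in the lead, and 2 were lower (23.5% of all genes), Nr2f1 (-4.81) and Nr2f2 (-3.16), the COUP-TF receptors that are known to repress the gene. The median of the 11 regulators was 4.52. A gene lower in ESC could pass the minimum through the NPC libraries alone, so these counts support nothing by themselves. Of Oct4's protein partners, 4 of 10 were higher and none lower, with a median of 0.49, where 22.4% of all genes were higher. Sall4, 1 of the 4, passed the minimum only with ESC libraries. Besides Sall4 these were Sox2 (1.78), Sall1 (1.66) and Mta3 (1.57), a subunit of the NuRD complex.

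Most of the other POU-domain genes that could be tested were lower in ESC. Of 14 listed, 8 were tested, 6 were lower in ESC (23.5% of all genes) and 2 higher (22.4%), with a median of -3.30. The neural factors Pou3f4 (-6.56), Pou3f1 (-5.51), Pou3f2 (-4.12) and Pou3f3 (-4.00) fell, and Pou2f3 (4.11) and Pou2f1 (1.89) rose. Pou2f3 was at 0 in all 4 R10 NPC libraries and passed the minimum only with ESC. Genes lower in ESC could in turn pass it through the 4 NPC libraries alone, so the count of lower genes supports nothing by itself. Of the 3 tested neighbours on chromosome 17, Tcf19 was lower in R10 (-1.65) and the other 2 were not called. In R9 all 4 neighbours were tested, Tcf19 was again lower (-1.69, 18.4% of all genes were lower), and Cchcr1 (1.35) and Psors1c2 (1.89) were higher (17.6%). Of these 4, 2 passed the minimum only with the help of ESC libraries, among them Psors1c2, which was at 0 in all 4 R9 NPC libraries.

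The genes whose levels ran most like Pou5f1 over the libraries were found from Pearson's r of log2(CPM + 1), taking the lower r of the 2 chemistries over 22 and 23 libraries, among 12474 genes. Hsd17b14, a hydroxysteroid dehydrogenase gene, came first (r = 0.92 in R9 and 0.97 in R10), followed by Bex1 (0.91 and 0.92), Tdh (0.91 and 0.91), the threonine dehydrogenase of mouse ESC, and Ly75 (0.91 and 0.92). The next were Hspb1, an unannotated antisense gene at Ssh2, Hsp90aa1, Tuba4a, Adrb3 and Hspbap1, with lower r of 0.89 to 0.90. These are descriptions over libraries that share systems and depth, and strand use in counting is not stated, which leaves the antisense gene uncertain.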

How the data were processed

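Gene values were deposited by the authors as CPM and transcript values as TPM, with models in the deposited annotation. The submitters' processing notes name mm10 and minimap2 2.24-r1122. In every library CPM, and TPM times model length, were multiples of what 1 read is worth (100% of values within 0.02), which gave gene and transcript reads. CPM and TPM were tested as log2(value + 1) by limma 3.58.1 (eBayes with trend, R 4.3.3) over all features at or above 1 in as many libraries as the smaller arm, with Benjamini-Hochberg adjustment. Shares were compared by exact permutation tests. edgeR 4.0.16 and DESeq2 1.42.0 on recovered reads were alternatives, and the limma fits of CPM were tested on simulated data. Genes were named by list membership, 2 to 4 per list by size of difference, and by likeness of level. The members and lists were chosen with earlier results of these data known, and 2 listed genes are not reported here. Another 13 gene columns matched no sample and were not used. Recovering whole reads does not tell how the program divided reads among models.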

Additional observations from a re-analysis of the deposited data

Results flagged for a closer look

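The 2i-LIF minus FBS-LIF with doxycycline difference of Pou5f1 had opposite signs in the 2 chemistries among late pairs. It was -0.16 for OKMS and -0.37 for OKS at day 20 in R9, and 0.011 for OKMS and 0.20 for OKS at day 18 in R10. The R10 OKMS pair was almost level (896 against 889 CPM), so its sign says little, and each pair has 1 library per medium. Every R9 day 20 pair was below 0 and every R10 day 18 pair above it, which drew attention to them, but the difference itself was not tested, and day and chemistry differ together. The R9 OKMS day 14 pair was at 0.62. None of 8 groups of libraries held 1 library far from the others.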

How the results depend on the processing

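Over 377 alternative values for 24 results, 361 stayed on the same side of the threshold or, for counts of called models, near the main count. A change of sign with either value past the threshold was seen in 0. Values that did not pass could change sign: the 2i-LIF pairs difference of 0.06 ran from -0.08 to 0.17 when a pair was left out. The day 2 difference of 5.91 was 2.01 on summed transcript TPM (added later, limma adjusted p = 0.277), and leaving out a library gave 5.83 to 5.99, not called in 3 of 4 cases. OKMS minus OKS in R9 was 1.10 with median centring and 0.62 to 1.20 when a day was left out, called without day 2, 4 or 20. Factor cells minus ESC in R10 was -0.20 with day 18 alone. With a minimum of 5 TPM, 4 Pou5f1 models were called in R10 and 0 in R9 (limma, 7 and 4 at the usual minimum). Leaving out a library gave 6 to 8 in R10 and 2 to 7 in R9, with 2 without ESC R1 and 7 without OKS day 20. edgeR on transcript reads (added later) called 7 in R10 and 1 in R9, the latter model 5 (1.87, adjusted p = 0.00680). The R9 difference in carried reads was 44.3 to 57.6 points when a library was left out. The highest was without OKMS day 6, the library that overlapped ESC, whose removal itself separates the arms. A minimum of 5 CPM left no value for Pou5f1 among progenitor libraries. With replicate number as a block, the WT medium difference was 0.68 (limma adjusted p = 0.214), and 5605 genes were called against 3940. Same-numbered libraries deviated together (r = 0.474 over 14688 genes), but 2 pairs do not show that the numbers pair the samples. Depth limits the shares of days 2 to 6, which rest on 1 to 14 carried reads in all but OKMS day 6.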
